A study of Mus musculus with 6 samples.

Results

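The NR4A and TOX genes are 5 genes that encode transcription factors, namely Nr4a1, Nr4a2, Nr4a3, Tox and Tox2, chosen by gene symbol from the 49315 genes of the deposited count table. They were measured by bulk RNA sequencing in CD8+ T cells sorted from the tumor-draining lymph nodes of wild-type female C57Bl6/J mice bearing B16F10 tumors, a transplantable mouse melanoma whose name the sample labels spell B26F10. The monotherapy group (n = 3 mice) received a single dose of HCW9218 under the skin, and the combination group (n = 3 mice) received the same agent with an antibody against PD1 given into the peritoneum. The series title describes HCW9218 as an immunotherapeutic complex of TGF-βRII and IL-15. Treatment began when tumors measured 50 to 100 mm3, and the cells were taken on day 5. Every mouse received HCW9218, so all values compare adding the antibody with HCW9218 alone, and no untreated group is analysed here.

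The NR4A proteins are orphan nuclear receptors whose genes are switched on rapidly, and for a short time, by T cell receptor signals, cAMP and other stimuli. TOX and TOX2 are DNA-binding proteins with an HMG box, and in mouse CD8+ T cells both families act downstream of the calcium-regulated factor NFAT and are known for their part in the exhausted state that follows lasting antigen stimulation. PD1 dampens signalling through the T cell receptor.

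All 3 NR4A promoters carry repeated copies of the core of the cAMP response element (CRE), the DNA element bound by CREB, and are shown because these genes are compared with each other throughout. Each line gives the 250 bases before the annotated start in RefSeq on GRCm38.p6, 5′ to 3′ on the strand of the gene, with the letters TGACG or its reverse complement CGTCA in capitals. The Nr4a1 window lies at chr15:101266596-101266845 on the plus strand, the Nr4a2 window at chr2:57124004-57124253 on the minus strand and the Nr4a3 window at chr4:48045055-48045304 on the plus strand.
Nr4a1: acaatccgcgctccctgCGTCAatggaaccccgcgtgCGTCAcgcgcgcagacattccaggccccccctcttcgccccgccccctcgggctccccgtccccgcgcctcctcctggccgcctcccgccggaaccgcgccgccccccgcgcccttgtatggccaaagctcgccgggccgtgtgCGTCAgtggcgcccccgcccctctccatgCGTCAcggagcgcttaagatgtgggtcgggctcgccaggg
Nr4a2: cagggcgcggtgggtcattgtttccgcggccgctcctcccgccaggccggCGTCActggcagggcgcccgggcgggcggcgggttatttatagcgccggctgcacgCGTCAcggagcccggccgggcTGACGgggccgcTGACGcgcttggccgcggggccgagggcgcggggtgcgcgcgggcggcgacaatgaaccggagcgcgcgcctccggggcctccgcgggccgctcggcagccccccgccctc
Nr4a3: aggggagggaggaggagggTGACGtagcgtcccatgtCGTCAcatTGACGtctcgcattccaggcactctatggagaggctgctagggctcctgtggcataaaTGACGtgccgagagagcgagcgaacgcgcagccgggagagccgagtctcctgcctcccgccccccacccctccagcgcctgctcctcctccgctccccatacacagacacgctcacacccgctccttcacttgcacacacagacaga
The search covered both strands of windows that run on to 50 bases after the start, 300 bases in all. The core occurred 4 times in each of the 3 windows. Of 32851 promoter windows of the same length in the RefSeq table, 20.8% held the core at least once and 0.231% held it at least 4 times. The spacing differed, with the copies of Nr4a1 starting at -233, -213, -69 and -40 relative to the RefSeq start, those of Nr4a2 at -200, -144, -123 and -111, and those of Nr4a3 at -231, -213, -205 and -147. The printed Nr4a1 and Nr4a2 windows end at the starts of the deposited genes. The deposited Nr4a3 gene begins at 48045153, inside its printed window, so the Nr4a3 distances do not apply to that start. The full palindrome TGACGTCA, which contains the core and is held by 1.79% of windows, was in none of the 3, nor was the AP-1 motif TGANTCA (7.81% of windows) or the NR4A monomer motif AAAGGTCA (1.51% of windows). Tox2 has 5 windows in the table, 1 of which held the core, once, and Tox has no entry. These matches describe letters and not sites in use.

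**Figure D1:**
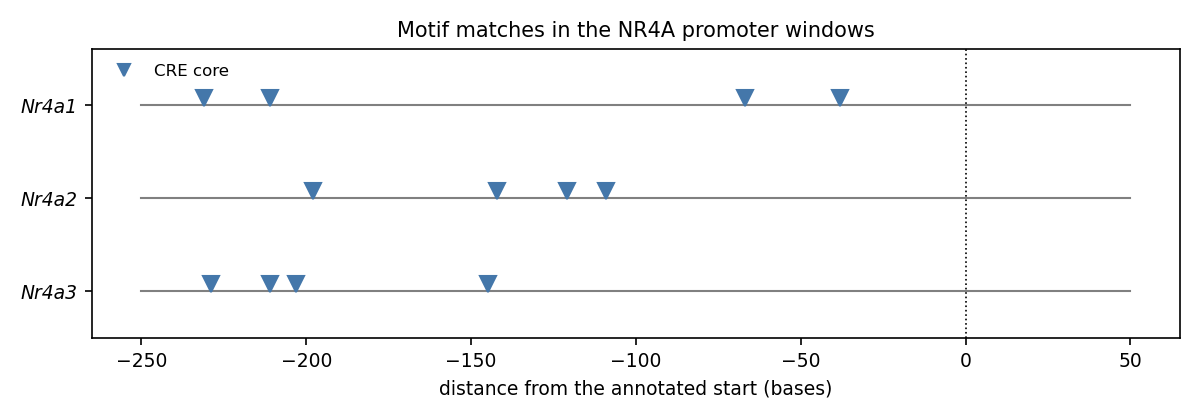
Positions of the CRE core (triangles, drawn at the middle of each match) in the promoter windows of Nr4a1, Nr4a2 and Nr4a3, in bases from the annotated start (dotted line). Each window holds 4 copies, and those of Nr4a2 and Nr4a3 all lie more than 100 bases before the RefSeq start. For Nr4a3 that start lies inside the deposited gene, so its distances do not apply to the deposited start.

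The 6 libraries held 34568074 to 40101346 counts each. Cd8a ran from 1421 to 1646 CPM (counts scaled to the library size with TMM factors) over all 6 libraries and Cd4 from 0.425 to 3.06 CPM, so the defining CD8 markers were present. The defining B cell marker Ms4a1 was at most 5.20 CPM and the macrophage gene Adgre1 at most 0.217 CPM. Dct and Tyrp1, pigment enzymes of melanocytes, were at 7.94 and 7.41 CPM in combination replicate 2 and at 9.77 and 9.48 CPM in combination replicate 3, and at 0 to 0.0279 CPM in the other 4 libraries. The 6 markers of that list summed to 21.9 to 28.6 CPM in monotherapy and 30.3 to 53.8 CPM in the combination, most of it from Pmel in monotherapy. The 5 natural killer cell markers summed to 120 to 137 and 169 to 206 CPM, mostly Eomes. Of these 5, Klre1, which encodes a lectin-like receptor, rose from 4.16 ± 0.748 to 13.1 ± 3.76 CPM (SD, n = 3 each; log2 fold change 1.65, edgeR adjusted p = 0.0161), and the defining marker Ncr1 was between 0.0508 and 0.362 CPM. The summed levels of the CD4, follicular helper, B cell, myeloid, dendritic and stromal marker lists overlapped between the groups. Most of the dendritic sum was Ccr9 and most of the stromal sum Pecam1. The dendritic genes Itgax and Xcr1 and the myeloid gene Fcgr3 were higher in each combination library than in any monotherapy library. That pattern was seen in 7.17% of all tested genes. Itgax, Xcr1 and Fcgr3 did not pass (edgeR adjusted p = 0.114, 0.751 and 0.431), and the other tested dendritic and myeloid genes overlapped. Cxcr5 and Cd22 were also higher in each combination library than in any monotherapy library (edgeR adjusted p = 0.0528 and 0.0244). Bcl6 and Pecam1 were lower in each (edgeR adjusted p = 0.368 and 0.825), as were 7.54% of all tested genes. Combination replicate 1 stood apart on the first principal component, at 29.3 against -11.3 to 1.94 for the others.

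Nr4a2 fell with the combination, Nr4a1 lay lower in every combination library without passing the test over all genes, and Nr4a3, Tox and Tox2 overlapped between the groups. In bulk RNA, fewer cells with a transcript and less of it per cell cannot be told apart. Among 15142 genes tested with edgeR's quasi-likelihood test, 20 (0.132%) were lower and 144 (0.951%) higher at a Benjamini-Hochberg adjusted p under 0.05, and 1 of the 5 members was among the lower and 0 among the higher.

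Nr4a1 (Nur77), the member whose transcript is widely used as a read-out of recent T cell receptor signalling, lies on chromosome 15 at chr15:101266846-101274792 on the plus strand. Its level was 36.4, 35.8 and 32.8 CPM in monotherapy replicates 1, 2 and 3 and 25.9, 21.4 and 23.9 CPM in combination replicates 1, 2 and 3. All 3 combination libraries were below all 3 monotherapy libraries, a pattern in that direction that 7.54% of all tested genes showed. The means were 35.0 ± 1.92 and 23.7 ± 2.23 CPM (SD, n = 3 each), and the fitted log2 fold change was -0.56 ± 0.13 (SE) with a 95% interval from -0.85 to -0.27. The edgeR adjusted p was 0.109 (unadjusted 1.71e-03), so Nr4a1 missed the threshold, while DESeq2 gave an adjusted p of 0.0185 (0.0185 to 0.850 over the 17 other settings). The fitted level in the combination was 67.8% of that in monotherapy.

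Nr4a2 (Nurr1) is a close relative of Nr4a1 and, like it, an immediate-early gene. It lies at chr2:57106830-57124003 on the minus strand. Its level was 13.0, 14.0 and 13.4 CPM in monotherapy replicates 1, 2 and 3 and 7.69, 5.96 and 5.41 CPM in combination replicates 1, 2 and 3. The monotherapy libraries lay close together, and every combination library was below all of them, with replicate 1 the nearest. The means were 13.4 ± 0.541 and 6.35 ± 1.19 CPM (SD, n = 3 each), and the fitted log2 fold change was -1.08 ± 0.18 (SE) with a 95% interval from -1.48 to -0.69 and an edgeR adjusted p of 0.0211. By unadjusted p Nr4a2 ranked 93rd of the 15142 genes, and Nr4a1 236th.

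The direction for Nr4a2 was the same in all 17 other settings, with log2 fold changes from -1.22 to -0.81, but the call was not, with adjusted p from 6.82e-06 to 0.543. The adjusted p was 0.113, 0.127 and 0.108 without monotherapy replicates 1, 2 and 3 and 0.113 without combination replicate 2, against 7.34e-03 and 0.0126 without combination replicates 1 and 3. Dct and Tyrp1 were at 0 in combination replicate 1, the library with the highest Nr4a2 level of its group, and that library alone against monotherapy gave a log2 fold change of -0.81, which rests on 1 sample and on the assumption that it varies like the others. With the level of Dct and Tyrp1 as a covariate the log2 fold change was -0.83 (adjusted p = 0.0940), and with the summed B cell markers as a covariate -0.92 (adjusted p = 0.543). The Dct and Tyrp1 covariate mainly sets combination replicates 2 and 3 apart. Its group difference therefore also rests largely on combination replicate 1. The summed B cell markers ran from 480 to 551 CPM in monotherapy and 499 to 611 CPM in the combination, most of it Ighm, and 1 of the 7, Cd22, rose. The part of melanocyte, B cell or natural killer cell transcripts in the Nr4a2 values was not tested.

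Nr4a3 (Nor1), the third receptor of the family, lies at chr4:48045153-48086447 on the plus strand. Its level was 12.2, 12.8 and 14.3 CPM in monotherapy replicates 1, 2 and 3 and 12.3, 12.3 and 15.9 CPM in combination replicates 1, 2 and 3. The groups overlapped, and the highest library of all was combination replicate 3, which was the lowest for Nr4a2. The means were 13.1 ± 1.10 and 13.5 ± 2.05 CPM (SD, n = 3 each), and the fitted log2 fold change was 0.04 ± 0.16 (SE; edgeR adjusted p = 0.986). The 95% interval of -0.32 to 0.40 overlapped that of Nr4a1 (-0.85 to -0.27) and not that of Nr4a2 (-1.48 to -0.69). Differences between these genes were not tested. The sign turned to -0.092 without combination replicate 3 and to -0.069 with Dct and Tyrp1 as a covariate.

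**Figure D2:**
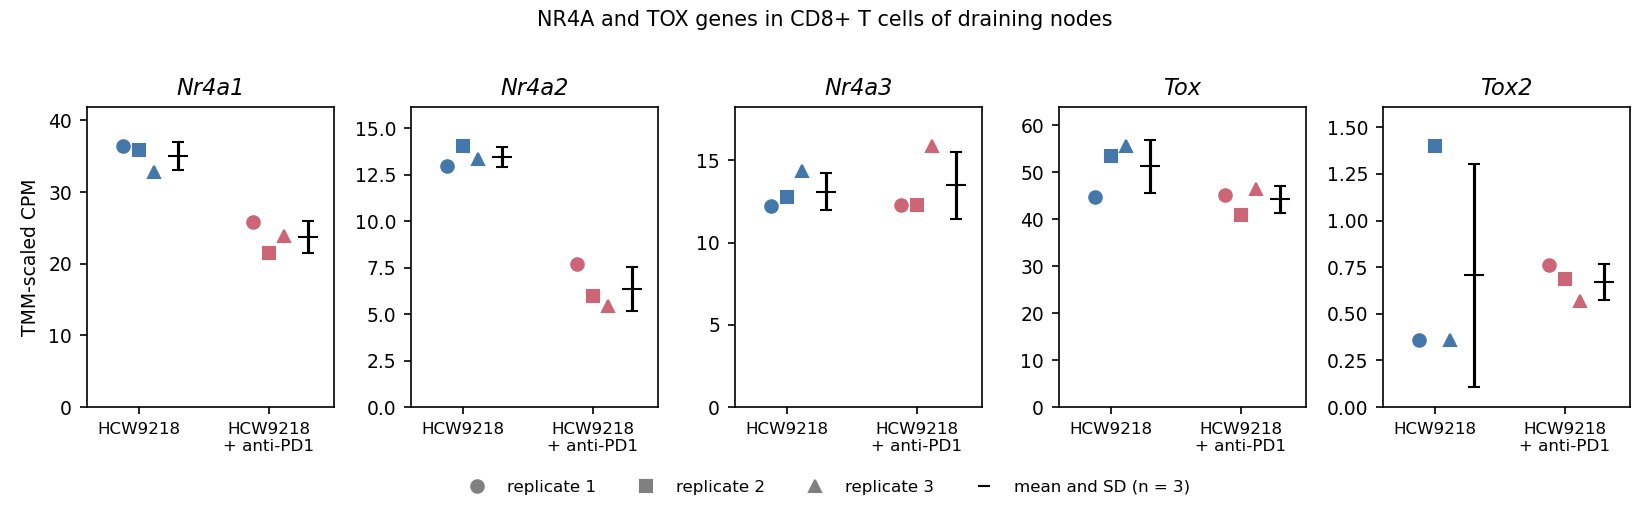
TMM-scaled CPM of the 5 genes in each library (marker shapes are replicates 1 to 3), for HCW9218 alone (blue) and with anti-PD1 (red), with the mean and SD of each group (n = 3 mice); each panel has its own axis from 0. The groups are apart for Nr4a1 and Nr4a2 and overlap for Nr4a3, Tox and Tox2.

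Ratios within the NR4A family did not overlap between the groups. On the log2 scale the ratio of Nr4a2 to Nr4a3 CPM was 0.09, 0.13 and -0.10 in monotherapy replicates 1, 2 and 3 and -0.68, -1.04 and -1.55 in combination replicates 1, 2 and 3. Their means were 0.04 ± 0.12 and -1.09 ± 0.44 (SD, n = 3 each), with every combination library below every monotherapy library. The log2 ratio of Nr4a2 to Nr4a1 was -1.49 to -1.30 in monotherapy and -2.14 to -1.75 in the combination, so Nr4a2 was also lower relative to Nr4a1 in each combination library. The log2 ratio of Nr4a3 to Nr4a1 was -1.58 to -1.20 in monotherapy and -1.07 to -0.59 in the combination. Each ratio holds Nr4a1 or Nr4a2, whose own levels did not overlap between the groups. Among single genes, 7.54% were lower and 7.17% higher in every combination library. The share of other gene pairs with ratios that do not overlap was not computed. These differences were not tested, since the genes were chosen with their changes known.

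Per kilobase of exon, the scale on which genes can be compared with each other, Nr4a1 was the most abundant member in each library. In monotherapy its level was 14.1 ± 0.775 RPKM, followed by Tox at 6.74 ± 0.753, Nr4a2 at 3.31 ± 0.133, Nr4a3 at 2.19 ± 0.184 and Tox2 at 0.208 ± 0.176 RPKM (SD, n = 3 each). In the combination the order was Nr4a1 at 9.60 ± 0.900, Tox at 5.82 ± 0.381, Nr4a3 at 2.25 ± 0.343, Nr4a2 at 1.57 ± 0.292 and Tox2 at 0.198 ± 0.0281 RPKM. Nr4a2 was above Nr4a3 in 3 of 3 monotherapy libraries and below it in 3 of 3 combination libraries, and no neighbours in either order overlapped between libraries of a group. In monotherapy the mean RPKM of Nr4a1 was above that of 75.3% of tested genes and the mean RPKM of Tox2 above that of 9.49%.

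Summed over the family, NR4A transcripts were at 19.9, 20.1 and 19.0 RPKM in monotherapy replicates 1, 2 and 3 and at 14.4, 12.2 and 13.6 RPKM in combination replicates 1, 2 and 3. Nr4a1 made up 72.0% ± 1.90 of that sum in monotherapy and 71.5% ± 0.954 in the combination (SD, n = 3 each). The share of Nr4a2 was 16.9% ± 0.748 and 11.7% ± 1.72, and that of Nr4a3 11.2% ± 1.29 and 16.8% ± 2.57. The lower sum thus came with a like share for Nr4a1, a smaller one for Nr4a2 and a larger one for Nr4a3.

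**Figure D3:**
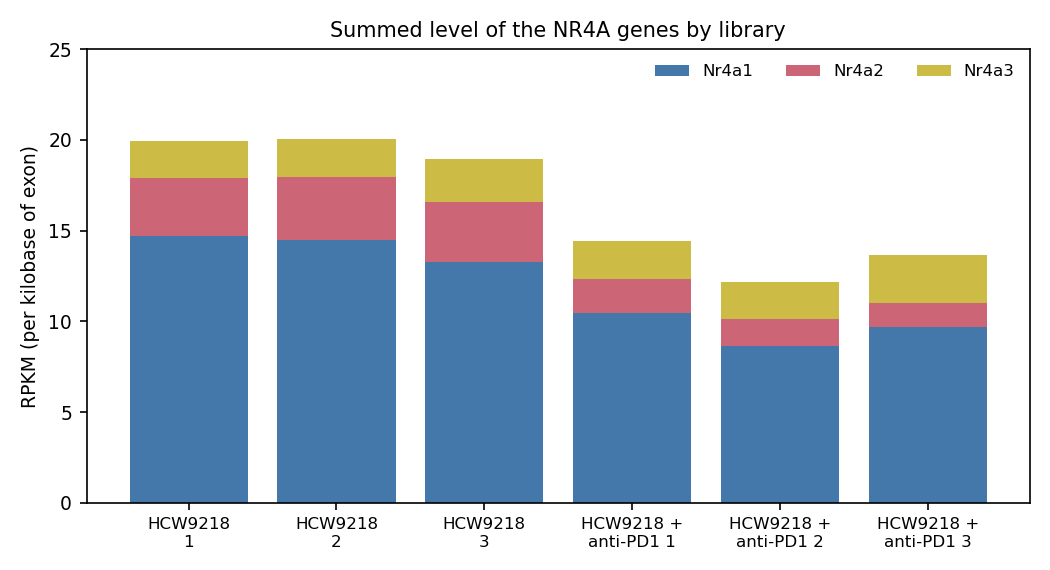
Level of Nr4a1, Nr4a2 and Nr4a3 in RPKM, stacked for each library; there are no error bars because each bar is 1 library. The summed level is between 19.0 and 20.1 RPKM in the monotherapy libraries and between 12.2 and 14.4 RPKM in the combination libraries, and the Nr4a3 segment is between 2.04 and 2.65 RPKM over all 6.

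Tox, which is needed in mice for exhausted CD8+ T cells to form and persist, lies at chr4:6686353-6991557 on the minus strand. Its level was 44.8, 53.5 and 55.5 CPM in monotherapy replicates 1, 2 and 3 and 45.3, 41.0 and 46.5 CPM in combination replicates 1, 2 and 3. Monotherapy replicate 1 lay among the combination libraries and the other 2 monotherapy libraries above them. The means were 51.3 ± 5.73 and 44.3 ± 2.90 CPM (SD, n = 3 each), and the fitted log2 fold change was -0.21 ± 0.13 (SE; edgeR adjusted p = 0.834) with a 95% interval from -0.51 to 0.09. The sign was the same in all 17 other settings, from -0.29 to -0.05, and in none did Tox pass. Tox shares 260 bases of exon with Gm11802 on the opposite strand, which had 0 to 10 counts per library.

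Tox2, a relative of Tox that is also known from follicular helper CD4+ T cells, lies at chr2:163203125-163324170 on the plus strand and was close to the limit of detection. It had 13, 55 and 15 counts in monotherapy replicates 1, 2 and 3 and 25, 26 and 22 counts in combination replicates 1, 2 and 3, which is 0.362, 1.40 and 0.362 CPM and 0.760, 0.686 and 0.570 CPM. Monotherapy replicate 2 was above, and the other 2 monotherapy libraries below, all of the combination libraries. The log2 fold change was -0.08 ± 0.56 (SE; edgeR adjusted p = 0.990) with a 95% interval from -1.35 to 1.19, and without monotherapy replicate 2 it was 0.89 (adjusted p = 1.00; 0.918 to 1.00 over the other settings). No change, and no absence of one, can be read at this depth. In that library the summed follicular helper markers were at 73.1 CPM, within the 67.6 to 131 CPM of all 6 libraries, and the summed B cell markers at 515 CPM. Single genes of these lists differed, with the B cell genes Cd79a and Pax5 (9.45 and 6.43 CPM) and the follicular helper cytokine Il21 (0.254 CPM, 27 counts over all libraries) at their highest there, and Cxcr5 and Sh2d1a (16.5 and 38.6 CPM) not. The part of either cell type in the Tox2 value was not tested.

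Genes that share the rapid induction of the NR4A family also lay lower, though few passed. Of 28 tested immediate-early genes, a list that holds none of the 5 members, 4 fell, 0 rose and 24 did not pass, against 0.132% of all tested genes called lower. In DESeq2 10 fell and 0 rose (0.482% of all genes were called lower there). The list had 15 genes at an unadjusted p under 0.05, which 8% of all tested genes had. A log2 fold change below 0 was seen for 26 of the list and for 50.1% of all tested genes. The median log2 fold change was -0.47, against 0.00 over all 15142 genes, and it ran from -0.54 to -0.35 over the 17 other settings. The count of lower genes was 1 without any of the monotherapy replicates 1, 2 and 3 in turn, 7, 1 and 5 without combination replicates 1, 2 and 3, 1 with Dct and Tyrp1 as a covariate and 0 with the B cell covariate. The list was put together with earlier results on several of its genes known, so its direction is not independent evidence.

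The 4 that fell were Sik1, Egr1, Ppp1r15a and Jun. Sik1, a kinase that is induced by CREB and restrains its coactivators, was at 65.0, 71.1 and 74.5 CPM in monotherapy and 33.8, 25.9 and 23.5 CPM in combination replicates 1, 2 and 3. That is the same order of combination libraries as for Nr4a2, with replicate 1 highest and replicate 3 lowest. Its log2 fold change was -1.34 ± 0.16 (SE; edgeR adjusted p = 5.17e-03). Egr1, a zinc finger factor induced by the MAP kinase pathway, had -0.76 ± 0.14, Ppp1r15a, a stress-induced phosphatase subunit, -0.88 ± 0.16, and Jun, an AP-1 subunit, -0.97 ± 0.19 (SE; edgeR adjusted p = 0.0320, 0.0324 and 0.0478). Fosl2 and Nfkbid, at 0.02 and 0.00, were the members of the list that, like Nr4a3, did not lie below 0.

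Upstream regulators of the NR4A and TOX genes showed no calls. Of 13 calcineurin and NFAT genes, which carry the calcium signal of the T cell receptor to both families, 0 passed in edgeR and in DESeq2 and 1 had an unadjusted p under 0.05 (8% of all tested genes did). That gene was Rcan3, a regulator of calcineurin, at -0.37 ± 0.13 (SE), and the list median was -0.03. The catalytic subunits Ppp3ca and Ppp3cc were at 0.24 ± 0.13 and -0.14 ± 0.12. Nfatc1 and Nfatc2, which encode NFAT factors, had log2 fold changes of -0.09 ± 0.17 and 0.22 ± 0.19. Of 6 genes of CREB-type factors and their coactivators 0 passed in edgeR and in DESeq2 and 0 had an unadjusted p under 0.05, with a median of 0.02. Atf1 and Creb1, which encode factors of the CREB family, were at 0.19 ± 0.14 and -0.03 ± 0.15, and Crem, a CREB relative that is itself induced by cAMP, at 0.22 ± 0.24 (SE). The coactivator genes Crtc2 and Crtc1 were at -0.09 ± 0.15 and -0.11 ± 0.19 (SE).

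Partners and relatives were also without calls. Rxra and Rxrb encode the receptors with which Nr4a1 and Nr4a2 form heterodimers, and their log2 fold changes were 0.06 ± 0.16 and 0.03 ± 0.12 (SE). Tox4, a ubiquitous member of the TOX family, was at 110 ± 1.81 and 112 ± 4.69 CPM (SD, n = 3 each). Tox3 and Rxrg had 6 and 2 counts over all libraries and were not tested. Of 10 genes of the HBO1 histone acetyltransferase complex, whose catalytic subunit Kat7 is reported to bind TOX in mouse T cells, 0 passed in edgeR and in DESeq2 and 0 had an unadjusted p under 0.05. In that list 9 of 10 lay below 0, as did 50.1% of all tested genes. The list median was -0.13 and ran from -0.27 to -0.04 over the 17 other settings. Kat7 had 98.5 ± 4.05 and 86.9 ± 0.538 CPM (SD, n = 3 each; edgeR adjusted p = 0.837). The scaffold genes Jade1 and Jade2 had log2 fold changes of -0.27 ± 0.12 and -0.30 ± 0.16, and Ing5, which encodes a subunit with a PHD finger, -0.15 ± 0.13 (SE; edgeR adjusted p = 0.629, 0.729 and 0.929).

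The inhibitory receptors and ectoenzymes that are high in exhausted cells lay on both sides of 0. Above 0 lay 8 of the 12, and 7549 of all 15142 tested genes. Of 12 tested, 0 passed in edgeR, 2 rose in DESeq2 (1.88% of all genes were called higher there), and 5 had an unadjusted p under 0.05, which 8% of all tested genes had. Cd38, an NAD-consuming ectoenzyme, had a log2 fold change of 0.97 ± 0.24, the inhibitory receptor Cd160 0.86 ± 0.21, the ectoenzyme Entpd1 (CD39) 0.85 ± 0.28, and the inhibitory receptor Cd200r1 -0.84 ± 0.23 (SE; edgeR adjusted p = 0.135, 0.138, 0.361 and 0.212). Cd38, Entpd1 and Cd200r1 were low, with monotherapy means of 2.47, 1.90 and 3.62 CPM. Tigit had 1.00 ± 0.41 (SE). Pdcd1, which encodes PD1, had -0.21 ± 0.29, and Lag3, Ctla4 and Havcr2 had -0.11 ± 0.28, 0.03 ± 0.40 and 0.05 ± 0.46 (SE). The list median was 0.04, and it turned negative in 5 of the 17 other settings. Among 17 transcription factors of exhaustion and memory, Tbx21, which encodes the effector factor T-bet, rose by 1.55 ± 0.20 (SE; edgeR adjusted p = 6.91e-03). In that list 0 fell, 16 did not pass, and the median was -0.01. Of all tested genes, 0.951% were called higher. Eomes, a relative of Tbx21, had 0.52 ± 0.14 and was higher in each combination library than in any monotherapy library (adjusted p = 0.189), a pattern that 7.17% of genes showed. Bhlhe40 and Irf4, activation-induced factors, had -0.63 ± 0.28 and -0.29 ± 0.17, and Myb 0.29 ± 0.15 (SE), and none of these passed.

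**Figure D4:**
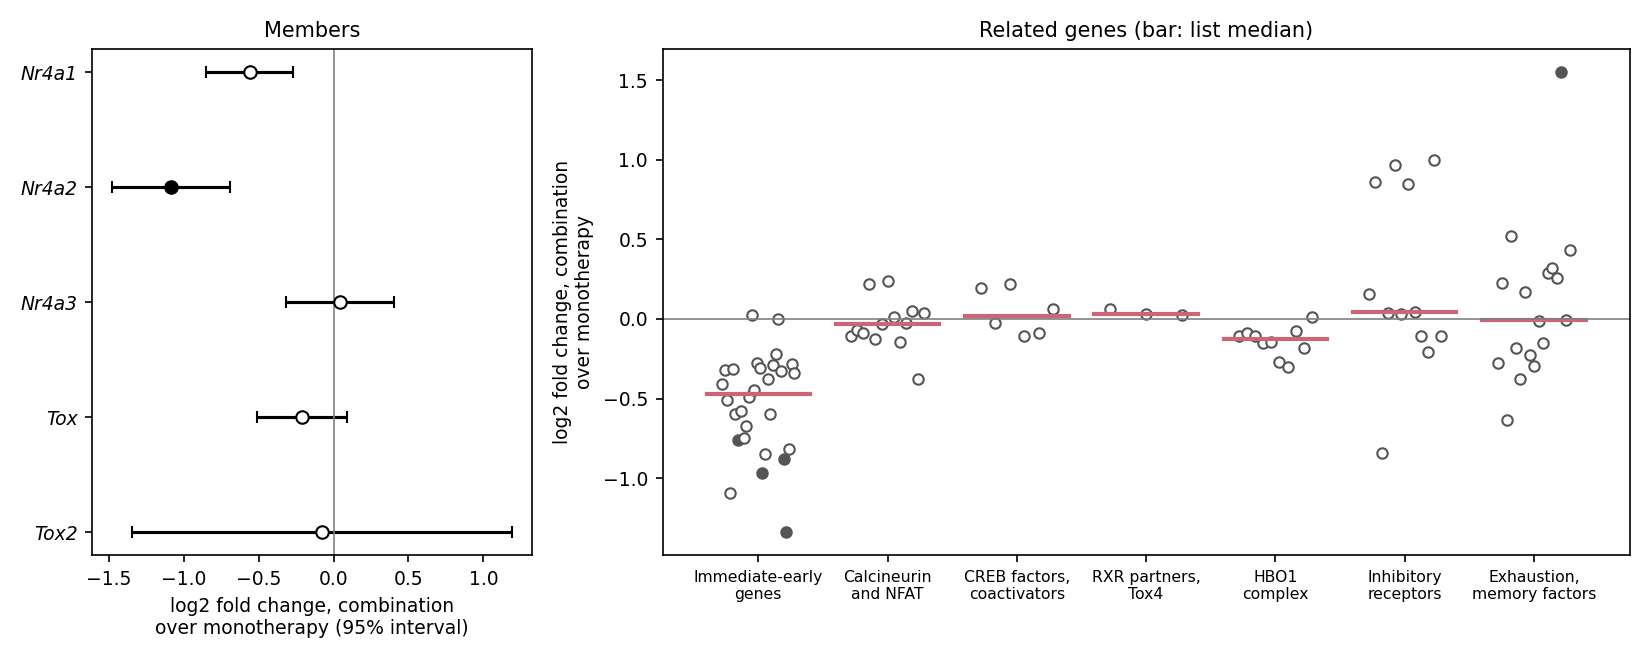
Left, log2 fold change of combination over monotherapy with its 95% interval for the 5 members; right, the same measure for each tested gene of 7 related lists, with the list median as a bar. Filled points have an edgeR adjusted p under 0.05; the immediate-early genes have a median of -0.47, while the medians of the other lists lie between -0.13 and 0.04.

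By Pearson correlation of log2 CPM over the 6 libraries, the genes most like Nr4a2 among 8092 candidates with a mean of at least 10 CPM were Spin1, a chromatin reader (r = 0.998), Sik1 (r = 0.997) and Dusp6, a phosphatase that inactivates ERK kinases (r = 0.989). Their sizes differed, with log2 fold changes of -0.19 for Spin1, -1.34 for Sik1 and -0.64 for Dusp6, of which Sik1 alone passed. Nr4a1 was most like Dgke, a diacylglycerol kinase (r = 0.997), Btbd19 (r = 0.996) and Rnf19b (r = 0.982), with log2 fold changes of -0.44, -0.33 and -0.40. Nr4a3 was most like Kat2a, Mob3c and Pigv (r = 0.994, 0.993 and 0.993), whose log2 fold changes lay between 0.02 and 0.07. Tox was most like Mettl1, Faap100 and Ring1 (r = 0.993, 0.992 and 0.988), and Tox2 had no gene above r = 0.921, the value for Terf2. The correlations rest on 6 libraries that share a group structure and scaling, and are a description.

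**Figure D5:**
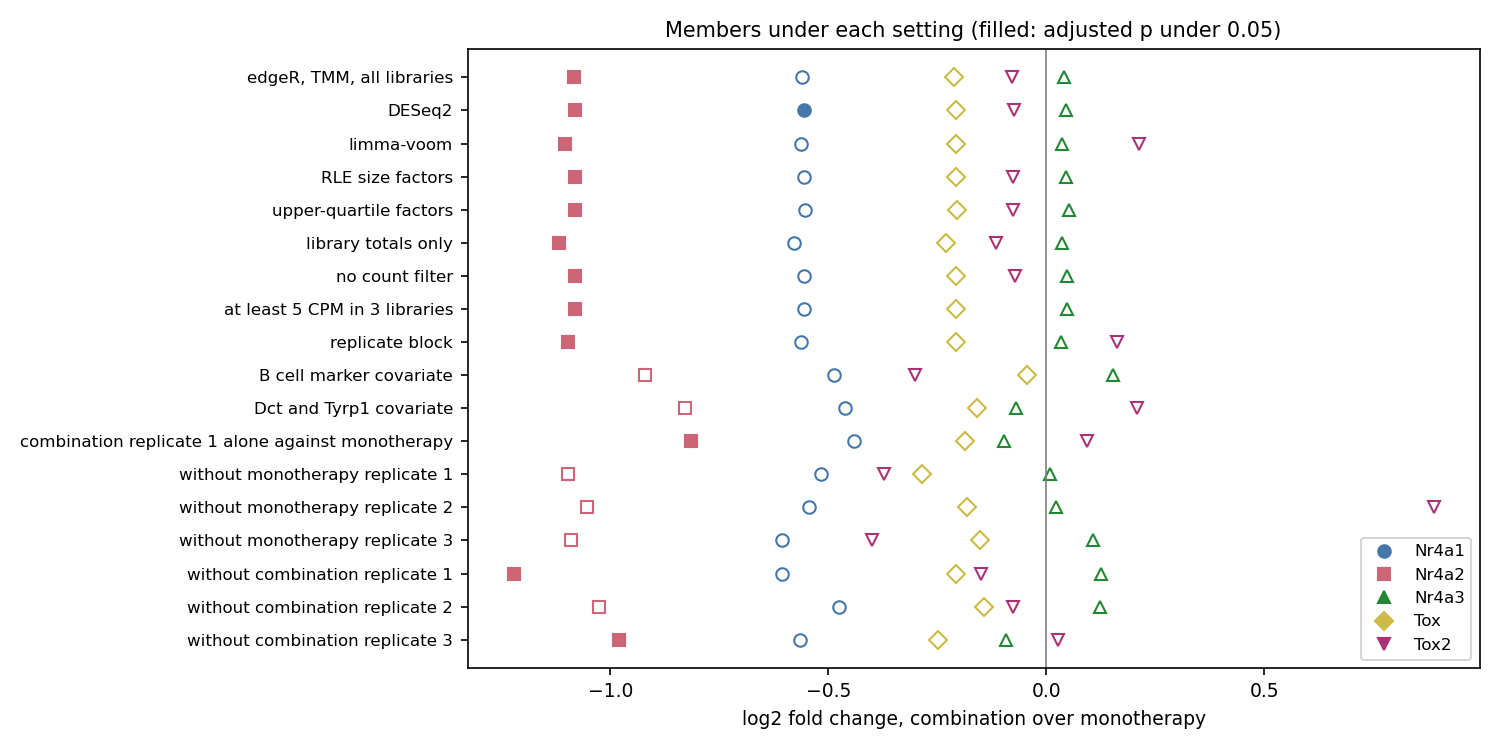
Log2 fold change of the 5 genes under the reported test (top line) and each of the 17 other settings; filled points have an adjusted p under 0.05. Nr4a2 stays between -1.22 and -0.81 and is called in 11 of the 17, Nr4a1 stays between -0.61 and -0.44 and is called in 1, and Tox2 moves from -0.40 to 0.89.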

How the data were processed

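RNA was extracted with Trizol and, per the labels' protocols, poly(A) RNA went into NEBNext Ultra II libraries. STAR 2.5.2b, featureCounts, Subread 1.5.2 and DESeq2 are named in the submitters' processing notes; for strand use, multi-mapped reads and build, the sources used here give nothing. The deposited values are raw counts per gene, not normalized; 6 further columns matched no sample and were not used. Coordinates are as deposited; of 48970 genes found in GENCODE M21 (GRCm38), 91.4% had the same ones.

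Counts were fitted in R 4.3.3 with edgeR 4.0.16 (filterByExpr, TMM factors from 0.901 to 1.12, quasi-likelihood F-test, no covariate), with Benjamini-Hochberg adjustment over 15142 genes, and with DESeq2 1.42.0 and limma 3.58.1 (voom) as alternatives. The script was checked on simulated data. RPKM uses the exon length in the deposited files. Counting error alone (exact Clopper-Pearson intervals at 95%) was 4.1% to 13.8% of a library's value for Nr4a1, Nr4a2, Nr4a3 and Tox and 27.4% to 58.9% for Tox2. No pair of libraries differed by sampling noise alone (chi-square per gene from 9.79 to 295). Same-numbered libraries deviated from their group means with correlations of 0.15, -0.06 and 0.28, and differently numbered ones with -0.23 to 0.12. These values do not settle whether the libraries are pairs. The labels state no pairing, so the main fit used none, and the replicate number was a block in 1 alternative.

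Members and lists were chosen with earlier results of these data known. Named were the members, list genes that passed, up to 4 genes per list that did not (those with the smallest p), and the 3 genes most correlated with each member (log2 CPM, prior count 2), without clone-style names and receptor segments. Fosl2, Nfkbid, Nfatc1, Creb1, Tigit, Pdcd1, Lag3, Ctla4, Havcr2 and single marker genes were named after their values were seen.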

Additional observations from a re-analysis of the deposited data

How the results depend on the processing

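Over all genes, 144 were higher and 20 lower. These counts were 284 and 73 in DESeq2, 340 and 113 without a count filter, 231 and 57 with the replicate number as a block, 91 and 35 with Dct and Tyrp1 as a covariate, and 834 and 628 for combination replicate 1 alone against monotherapy, where the lone library is assumed to vary like the others. With the B cell covariate they were 0 and 0 in edgeR, with 834 genes at an unadjusted p under 0.05. Leaving out 1 library gave 32 to 233 higher and 2 to 49 lower genes. Nr4a1 passed in DESeq2 (-0.56) and did not pass in the other 16 settings. Nr4a2 did not pass with the B cell covariate (-0.92) or the Dct and Tyrp1 covariate (-0.83), and ran from -1.22 to -0.98 with 1 library left out. It also did not pass without monotherapy replicate 1, 2 or 3, or without combination replicate 2. Nr4a3 changed sign with the Dct and Tyrp1 covariate (-0.069) and in combination replicate 1 alone (-0.10), and ran from -0.092 to 0.12 with 1 library left out. Tox2 changed sign in limma-voom (0.21), with the replicate block (0.16), with the Dct and Tyrp1 covariate (0.21) and in combination replicate 1 alone (0.094), and ran from -0.40 to 0.89 with 1 library left out; it could not be fitted at 5 CPM or more in 3 libraries. The Dct and Tyrp1 covariate mainly sets combination replicates 2 and 3 apart, so it and the fit of replicate 1 alone are not independent settings. The cause of these shifts was not tested. With the replicate block, Nr4a1, Nr4a2, Nr4a3 and Tox had log2 fold changes of -0.56, -1.10, 0.03 and -0.21, with no change of call, and 10 immediate-early genes were lower. The block is not a pairing that the labels state. The other scalings (RLE, upper quartile, library totals) changed no direction or call of the 5 genes. Depth limits Tox2 most, with 13 to 55 counts per library.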
